A study of Mastomys natalensis with 4 samples.

Results

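Gastrin (Gast), somatostatin (Sst) and the gastrin receptor (Cckbr, the cholecystokinin B receptor) are described here in mucosa from the stomach of Mastomys natalensis, a rodent in which ECL cell tumours arise readily. Every probe set that the platform annotation assigns to one of these 3 genes alone was taken, which gave 3 of 8251 genes and 5 of 12488 probe sets on the mouse U74 array: 3 for Gast, 1 for Sst and 1 for Cckbr. The groups were 2 samples after 16 weeks of loxitidine (the labels' spelling of the histamine H2 receptor blocker loxtidine), a stage labelled neoplasia of ECL cells, and 2 samples after 8 weeks of the same drug, labelled hyperplasia of ECL cells. All 4 samples were treated, so the comparison is of the later with the earlier stage and not of drug with no drug. Sex, age and the region of the stomach are not given in the labels, and treatment time and lesion stage cannot be told apart. Whether a group holds separate animals is not in the labels, and each sample carries a lot name of its own, so lot and sample cannot be told apart either.

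Gastrin is a peptide hormone of G cells, which lie mainly in the antrum, the part of the stomach next to the duodenum. It reaches the acid-secreting mucosa through the blood and acts through Cckbr on parietal cells and on enterochromaffin-like (ECL) cells, the histamine-producing endocrine cells of that mucosa. Somatostatin is released by neighbouring D cells when acid is high and restrains G cells, ECL cells and parietal cells. A blocker of the H2 receptor stops histamine from driving the parietal cell, lowers acid and so weakens this brake on gastrin.

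The deposited values are array intensities, the brightness of a probe set on a linear scale. The probes are mouse sequence and the RNA is not, so levels were compared only within a probe set. Readings under a floor of 12.15 were set to it, and a probe set was tested, on the log2 scale, if it exceeded the floor on 2 or more arrays, with limma, a linear model that shares variance across probe sets.

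All 3 Gast probe sets gave lower intensities at 16 weeks than at 8 weeks, Sst read slightly lower and Cckbr slightly higher. On the brightest Gast probe set the difference was -4.48 ± 0.84 on the log2 scale, a 22.3-fold lower level at 16 weeks. On each of the 2 other Gast probe sets it was -2.55. For Sst the difference was -0.28 ± 0.23 and for Cckbr 0.49 ± 0.25. Differences are 16 weeks minus 8 weeks with limma's SE (n = 2 per group). That SE, like limma's intervals, rests in part on variance shared across probe sets. None of the 5 passed limma's test after Benjamini-Hochberg adjustment over all 7883 probe sets tested, and neither did any other probe set, since the smallest adjusted p was 0.301. At an unadjusted p under 0.05 limma called 1100 probe sets (14% of those tested), 637 higher (8.08%) and 463 lower (5.87%). All 3 Gast probe sets were among the lower ones, and Sst and Cckbr were not called. The lowest 2-sided p open to an exact permutation test with 2 samples a group is 0.333. Over all tested probe sets 56.3% were higher at 16 weeks and 43.7% lower.

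**Figure D1:**
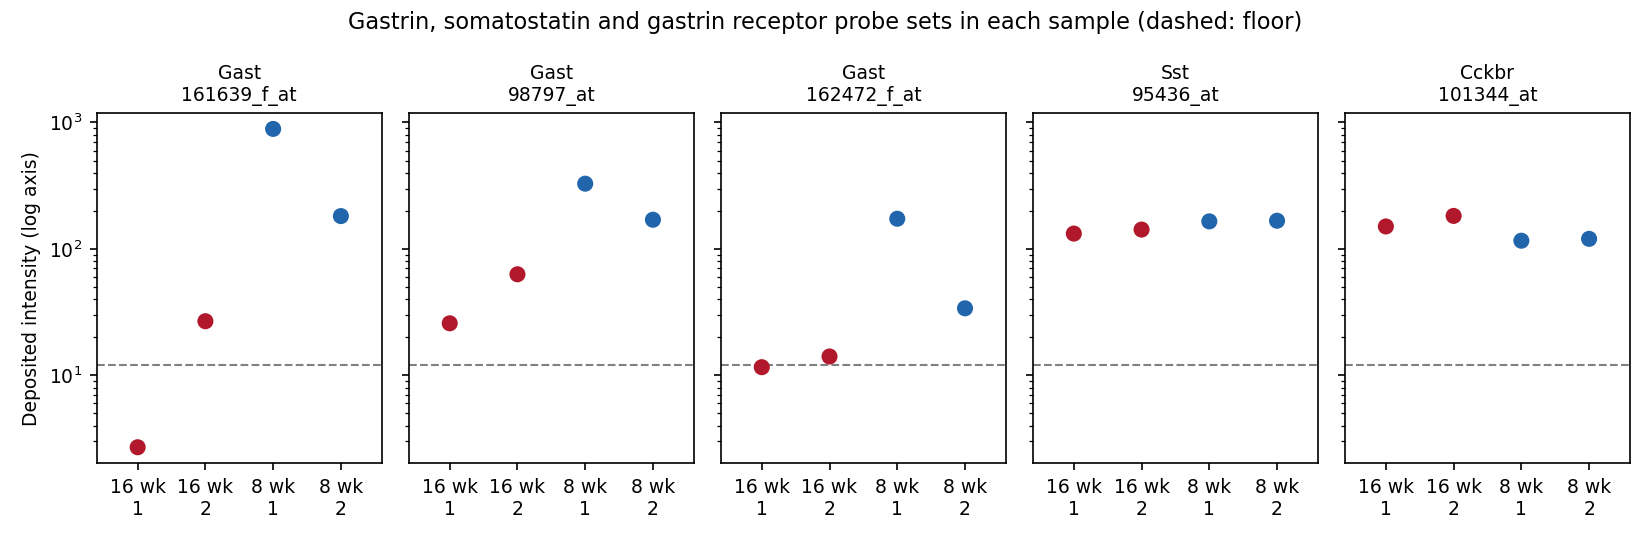
Deposited intensity (log axis) of the 3 Gast, 1 Sst and 1 Cckbr probe sets in each sample, with 16-week samples in red on the left and 8-week samples in blue on the right. The dashed line is the floor of 12.15, to which lower values were raised before fitting. Both 16-week samples lie below both 8-week samples in all 3 Gast panels, with values between 2.7 and 889 on the brightest probe set.

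The brightest Gast probe set, 161639_f_at, read 2.7 and 26.8 in the 16-week samples, against 889 and 182 in the 8-week samples. It was the brightest by its mean over all 4 samples, and only through its 8-week readings (mean 535, against 249 on 98797_at). At 16 weeks it was dimmer than 98797_at (mean 14.75 against 44.4), so choosing it favoured a large difference. Both 16-week values lay below both 8-week values, and the lowest 8-week value was 6.78 times the highest 16-week value. The reading of 2.7 lay under the floor of 12.15 and was set to it, so the size of the fitted difference depends on the floor. The 95% interval of the difference in limma, from -6.62 to -2.34, did not include 0, but limma's adjusted p was 0.301 (unadjusted 0.00292). The width of that interval rests in part on variance shared across probe sets. Only 0.419% of those tested varied more between the 8-week samples than this probe set, and 6.61% between the 16-week samples, on the floored scale. An interval from this probe set's readings alone was not computed. No other tested probe set on the array had as negative a difference, and none but this one lay below -4.

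The second Gast probe set, 98797_at, read 25.8 and 63.0 in 16-week samples against 328 and 170 in 8-week samples. It stayed above the floor on all 4 arrays and its name carries none of the suffixes that mark shared probes, whereas the f in the names of the other 2 marks a probe set built on a family of similar sequences. Here the 16-week level differed by -2.55 ± 0.55 on the log2 scale (95% interval -3.96 to -1.14, limma adjusted p = 0.307). The groups did not overlap, and the lowest 8-week value was 2.70 times the highest 16-week value. The third, 162472_f_at, read 11.6 and 14.1 in the 16-week samples, against 173 and 33.9 in the 8-week samples, a difference of -2.55 ± 0.78 (limma adjusted p = 0.326). It also had groups that did not overlap, but its lower 16-week reading lay under the floor.

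The 3 Gast probe sets ranked the samples alike. In each, 8-week sample 1 was highest, then 8-week sample 2, then 16-week sample 2, and 16-week sample 1 was lowest. They do not give independent animals, since all were read on the same 4 arrays, and they differ in the size of the difference. The brightest set gave a 22.3-fold lower level at 16 weeks and the others 5.86-fold and 5.85-fold lower ones, on the floored scale. Averaged over the 3 probe sets the difference was -3.19 ± 0.69 (limma adjusted p = 0.304).

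**Figure D2:**
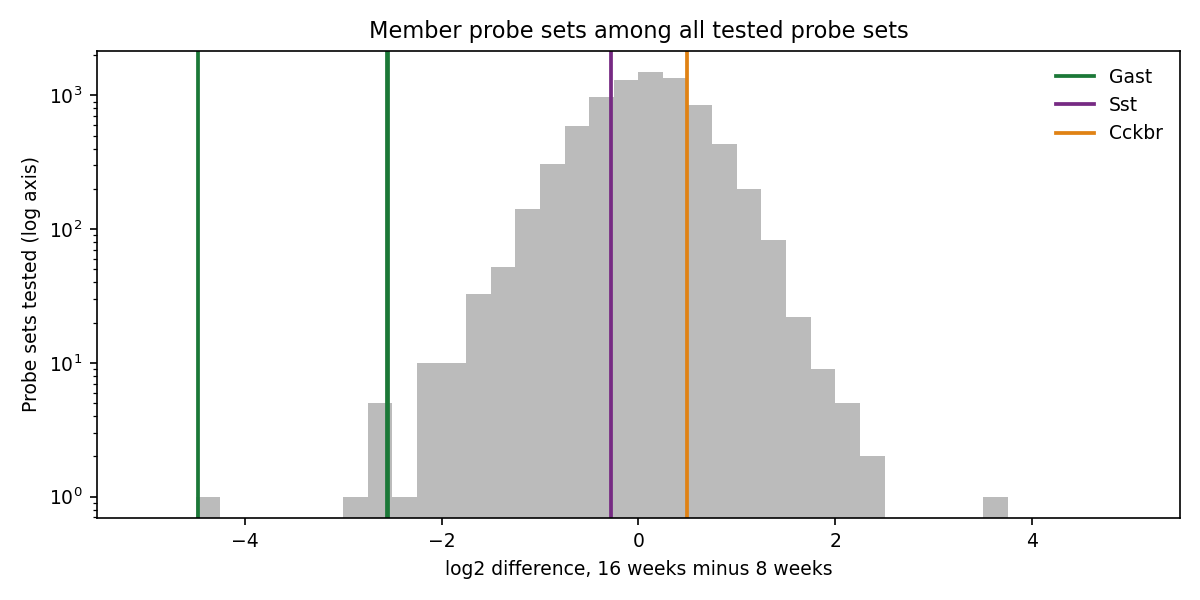
Histogram of the log2 difference, 16 weeks minus 8 weeks, over the 7883 tested probe sets (log count axis), with vertical lines at the Gast, Sst and Cckbr probe sets. The brightest Gast probe set lies at the lower end of the distribution at -4.48, and the 2 other Gast sets at -2.55 nearly coincide, while Sst at -0.28 and Cckbr at 0.49 lie inside the bulk.

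Against the other probe sets the Gast differences were large and those of Sst and Cckbr ordinary. Only 4 tested probe sets had a lower difference than 98797_at, the brightest Gast set among them. Below 162472_f_at lay 5, both other Gast sets among them. Sst had 2029 probe sets below it (25.7%), and Cckbr had 1664 above it (21.1%). Groups that did not overlap, on deposited values without the floor, were common on these arrays. Of the tested probe sets, 1625 (20.6%) lay wholly lower at 16 weeks and 2261 (28.7%) wholly higher. Non-overlap by itself therefore says little about Sst or Cckbr.

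Gast also varied strongly within a group. Between the 16-week samples 98797_at, the only Gast probe set above the floor in both, differed by 2.44-fold. The 8-week samples differed by 4.89-fold on the brightest probe set, and only 33 of the tested probe sets (0.419%) differed more between those 2 samples. On 162472_f_at the gap was 5.11-fold, with 29 probe sets (0.368%) above it, and on 98797_at it was 1.93-fold, with 9.2% above it. The median gap between 8-week samples over all tested probe sets was 0.32 on the log2 scale. In these whole-mucosa samples, fewer G cells and less Gast RNA per G cell cannot be told apart.

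Because 8-week sample 1 was the highest in every Gast probe set, the differences were computed without it. The brightest probe set then gave -3.33 (10.1-fold lower), 98797_at gave -2.08 (4.22-fold lower) and 162472_f_at gave -1.37 (2.59-fold lower), with a limma adjusted p of 0.595 for each and the single 8-week sample assumed to vary like the others. Without 8-week sample 2 the values were -5.62, -3.02 and -3.73. Without 16-week sample 1 they were -3.91, -1.91 and -2.44, and without 16-week sample 2 they were -5.05, -3.19 and -2.66. The direction was the same in all of these, and the fold moved by more than 1.5 times in some of them.

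That same 8-week sample 1 held the most signal of intestinal-type epithelium. The intestinal-type marker list had 15 of its 20 genes on the array, 12 of them highest in 8-week sample 1. It had 10 tested genes, of which 8 lay lower at 16 weeks, 5 with no overlap, and the median was -1.58, beside 43.7% lower and 20.6% wholly lower over all tested probe sets. Without 8-week sample 1, 6 of the 10 lay lower and the median was -0.07. Its summed intensity was 743 and 524 in the 16-week samples, against 4810 and 905 in 8-week samples 1 and 2. Trefoil factor 3 (Tff3), a goblet cell peptide, read 15.7 and 13.2 in the 16-week samples and 493 and 17.8 in the 8-week samples. Intestinal alkaline phosphatase (Akp3), an enterocyte enzyme, read 13.5 and 9.6 in the 16-week samples and 205 and 8.9 in the 8-week samples. The intestinal regulators Cdx1 and Cdx2 were under the floor on all 4 arrays. In 8-week sample 2 Tff3 and Akp3 were near their 16-week levels but other members of the list were not. The lectin Lgals4 read 79.5 and 92.5 in the 16-week samples against 155 in 8-week sample 2. The apolipoprotein Apoa4 read 504 and 246 in the 16-week samples against 616 there. Apoa4 read 2948 in 8-week sample 1 and made up most of the list's sum in both 8-week samples and in 16-week sample 1. The order of the sums is thus largely that of Apoa4. The part of intestinal-type tissue in the size of the Gast difference was not tested.

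Markers of the tissue next to which G cells lie were mostly too dim to use. Of 10 antral and duodenal genes 7 were on the array, and Pdx1, a transcription factor of antrum, duodenum and pancreas, was under the floor on all arrays, as were Lgr5 and Cd44. Gastric inhibitory peptide (Gip), a duodenal hormone, read 6.2 and 7.4 in the 16-week samples, against 14.2 and 7.9 in the 8-week samples, so only 8-week sample 1 lay above the floor. The list's summed intensity, nearly all of it from Gata4 and Gata6, was 510 and 482 in the 16-week samples, against 456 and 634 in the 8-week samples. The part of antral mucosa in each sample was not tested, as these markers did not measure it. Insulin (Ins2), the beta cell hormone, has 2 probe sets that disagreed. The first read 2.9 and 8.4 in the 16-week samples, against 250 and 3.3 in the 8-week samples, and the other was under the floor in every sample, at 4.2 and 3.1 in the 16-week samples and 3.0 and 2.9 in the 8-week samples. The pancreatic islet list summed to 117 and 109 in the 16-week samples, against 327 and 83.9 in the 8-week samples. Of the 327 in 8-week sample 1, the first Ins2 probe set gave 250. The list's members Iapp, Pdx1 and G6pc2 were under the floor on all arrays.

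**Figure D3:**
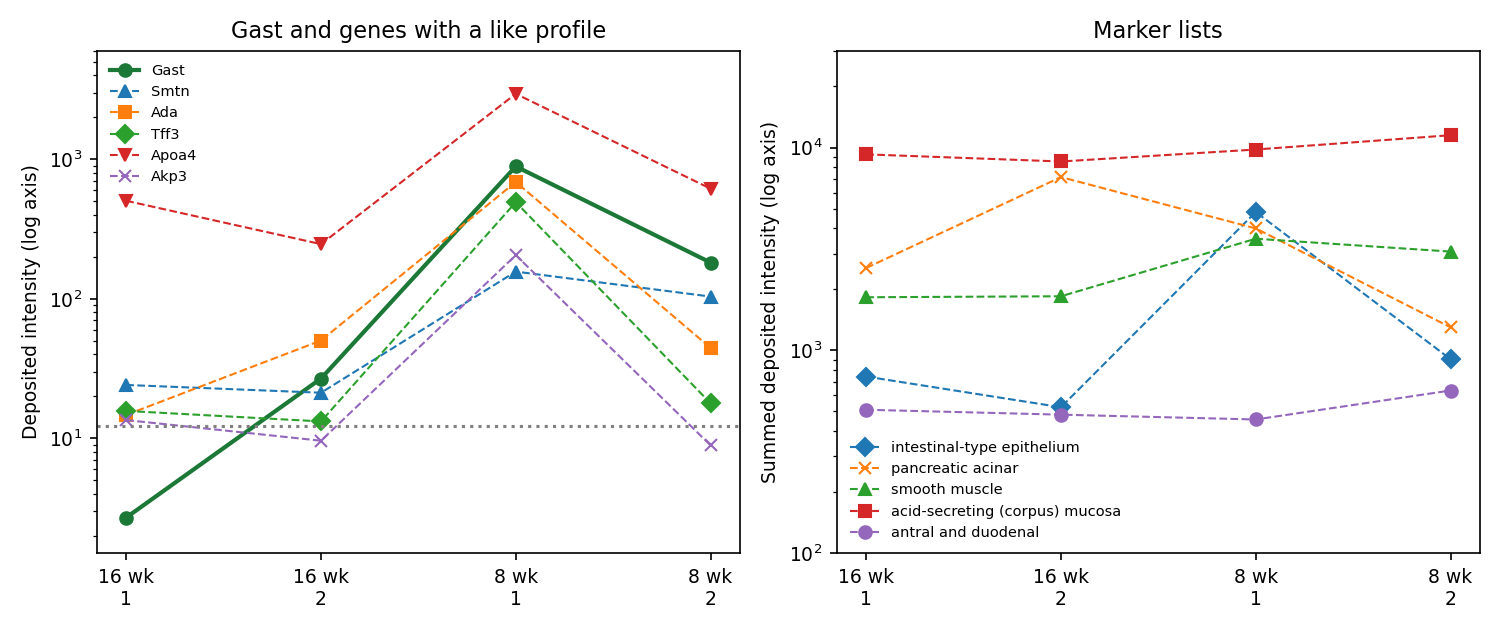
Left, deposited intensity (log axis) of the brightest Gast probe set and of Smtn, Ada, Tff3, Apoa4 and Akp3 in the 16-week samples and the 8-week samples, with the floor dotted. Right, summed intensity (log axis) of 5 marker lists in the same samples. The lines only join points of 1 gene or list. The intestinal-type sum is 4810 in 8-week sample 1 and between 524 and 905 in the other samples, while the acid-secreting mucosa sum stays between 8534 and 11499.

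Gast had few close companions on the array. Likeness was measured as the root mean square difference between log2 profiles centred over the 4 samples, among 5861 genes. The nearest were the purine enzyme adenosine deaminase (Ada, 1.09), the apolipoprotein Apoc2 (1.24), the smooth muscle protein smoothelin (Smtn, 1.25) and the brush border cadherin Cdhr5 (1.30), followed by Tff3 (1.35). Gast's own profile had a root mean square of 2.41, and no gene came within 1 of it. The measure depends on the size of a profile as well as its shape. Gast had the most negative difference of all, so its lack of near genes reflects that size. Ada read 14.7 and 50.2 in the 16-week samples, against 688 and 44.4 in the 8-week samples. Smtn read 24.1 and 21.2 in 16-week samples against 157 and 104 in 8-week samples, and so was high in both 8-week samples, as Gast was. The smooth muscle list had 10 genes on the array, 8 of them highest in an 8-week sample, and summed to 1827 and 1848 in the 16-week samples, against 3550 and 3069 in the 8-week samples. Its part in the Gast difference was not tested.

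Sst, the D cell hormone, differed between groups by about limma's SE, which shares variance across probe sets. Its probe set read 132 and 142 in 16-week samples, against 165 and 167 in 8-week samples. The 16-week samples agreed within 1.08-fold and the 8-week samples within 1.01-fold, and both 16-week values were lower. Most tested probe sets varied more within a group than Sst, 80.5% at 16 weeks and 92% at 8 weeks. The difference of -0.28 ± 0.23, or 1.21-fold lower, had an interval from -0.87 to 0.32 and a limma adjusted p of 0.592. With arrays aligned on 6 hybridisation controls, lower by 0.47 (log2) at 16 weeks, the sign of the Sst difference changed to 0.19 ± 0.26.

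The median difference of all tested probe sets was 0.09 on the deposited scale, -0.11 with the arrays on a common median and 0.49 with the arrays aligned on the hybridisation controls. Relative to that median, Sst lay at -0.36 on the deposited scale, -0.39 on the common median, -0.30 on the controls and -0.19 after quantile normalization. Cckbr lay at 0.40, 0.37, 0.47 and 0.56 in the same order. Gast lay at -4.56, -4.55, -4.56 and -4.37, with no tested probe set below it under any of these scalings.

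The profile nearest to that of Sst belonged to the kinesin light chain Klc1, at a root mean square difference of 0.021. Next were the spliceosomal protein gene Snrnp25 (0.023), the pseudogene Snrp1c-ps2 (0.028) and Atraid (0.029). A flat profile has many companions: 142 genes lay within 0.1 of Sst. Among the marker lists the acid-secreting mucosa gene Chia1, which encodes a chitinase, was closest at 0.040, followed by the surface cell peptide Tff1 at 0.057.

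Cckbr, the receptor through which gastrin acts on ECL and parietal cells, read 151 and 182 in 16-week samples, against 116 and 120 in 8-week samples. The 16-week samples agreed within 1.21-fold and the 8-week samples within 1.03-fold, and both 16-week samples were higher. The difference of 0.49 ± 0.25, or 1.40-fold higher, had an interval from -0.14 to 1.12 and a limma adjusted p of 0.421. It was between 0.35 and 0.63 with any 1 of the 4 samples left out. Both Cckbr and Sst had a mean intensity between 100 and 200, a range in which 42.4% of the 847 tested probe sets lay higher at 16 weeks and the median was -0.08.

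Cckbr was set beside transcripts of the cells that carry it, a choice made after its values were seen. Chromogranin A (Chga) is the granule protein of ECL and other endocrine cells. Its brighter probe set read 299 and 231 in the 16-week samples, against 141 and 242 in the 8-week samples. The difference there was 0.51 ± 0.35, with 1.08 ± 0.38 on its other probe set and -0.46 ± 0.34 for the related gene Chgb. Within each array the log2 ratio of Cckbr to the brighter Chga probe set was -0.99 and -0.34 in the 16-week samples. In the 8-week samples it was -0.28 and -1.01, so these overlapped and the mean differed by -0.021. The ratio to the other Chga probe set was not computed. The ratio to the proton pump subunit Atp4a, a parietal cell gene, was -5.01 and -4.47 in the 16-week samples, against -5.26 and -5.46 in the 8-week samples. This did not overlap, and the mean was higher by 0.62 at 16 weeks. Only the change of such a ratio between samples can be read, since 2 probe sets need not give the same signal for the same amount of RNA.

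The genes nearest in profile to Cckbr were the blood group gene Rhd (0.018), lactoferrin (Ltf, 0.025), the kinase Stk38 (0.025) and the homeobox gene Hoxc9 (0.027), with 125 genes within 0.1. Stk38 and Hoxc9 lay under the floor in both 8-week samples, so their profile was in part that of the floor.

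Ratios between the members within an array do not depend on how the arrays were scaled, apart from the floor on the lowest Gast reading. Gast stands here by its brightest probe set, whose difference was the largest of its 3. The log2 ratio of Gast to Sst was -3.44 and -2.41 in the 16-week samples, against 2.43 and 0.12 in the 8-week samples. The group means were -2.93 and 1.28, a difference of -4.20. This difference was between -5.35 and -3.05 with a sample left out. The ratio of Gast to Cckbr was -3.63 and -2.77 in the 16-week samples, against 2.94 and 0.60 in the 8-week samples, a difference of -4.97. Thus the hormone read lower relative to both its inhibitor and its receptor in every 16-week sample than in every 8-week sample. The ratio of Cckbr to Sst was 0.19 and 0.36 in the 16-week samples, against -0.51 and -0.48 in the 8-week samples. The difference was 0.76 and the pooled SD 0.088. That SD rests on 2 samples a group and on probe sets with small gaps. Between the 8-week samples 92% of tested probe sets varied more than Sst and 87.5% more than Cckbr. How often other gene pairs differ as much was not tested. The ratios are given as values only, since an exact permutation test over 2 samples a group cannot reach a p under 0.333.

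**Figure D4:**
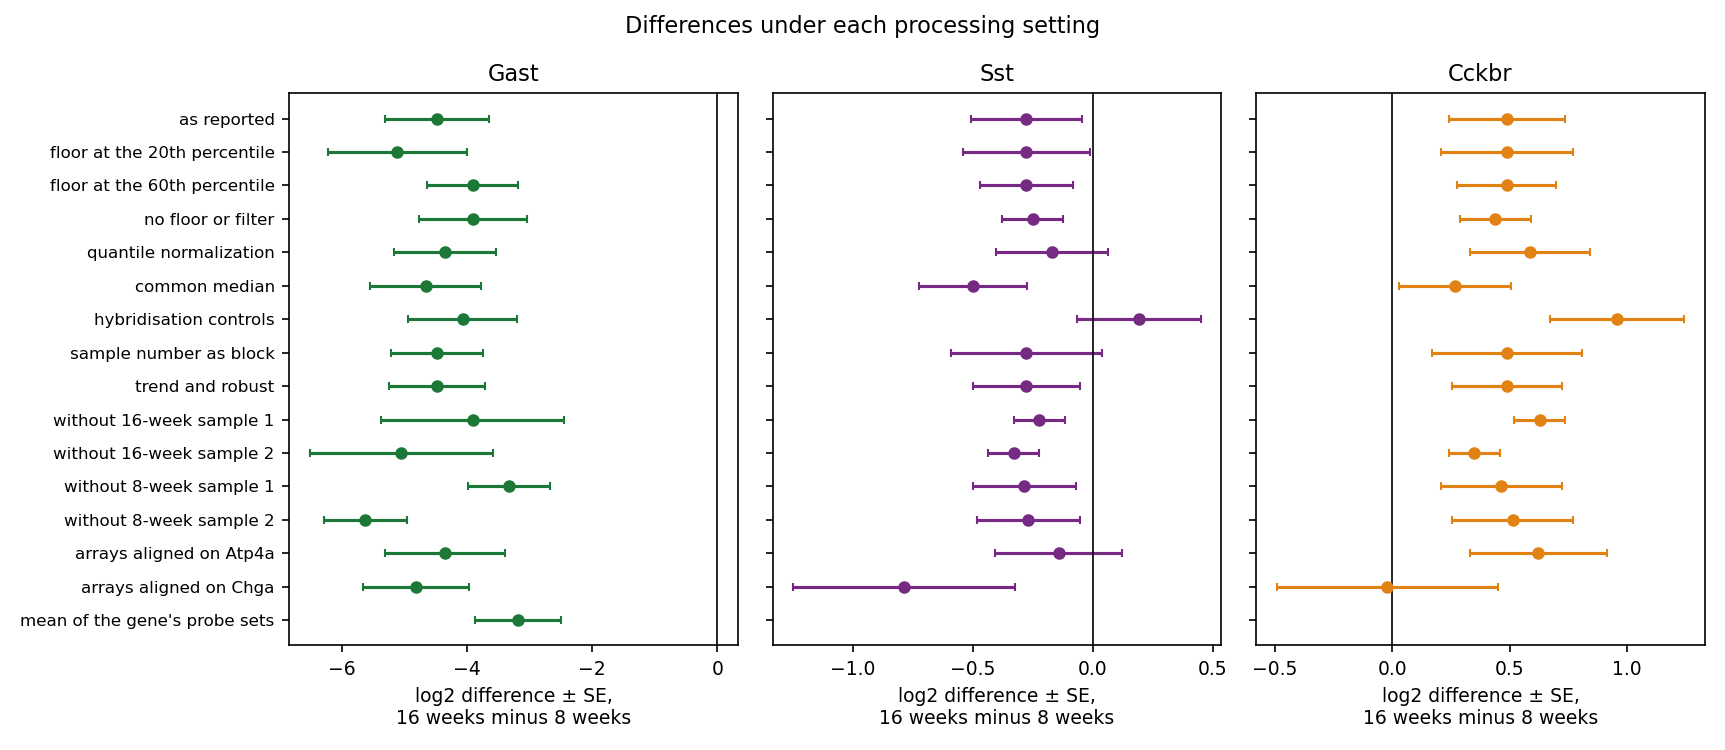
Log2 difference ± SE, 16 weeks minus 8 weeks, of the brightest Gast probe set, Sst and Cckbr under each processing setting. Gast lies between -5.62 and -3.33 for the brightest probe set and at -3.19 for the mean of the 3 probe sets. Sst is above 0 only with the hybridisation controls (0.19). Cckbr is below 0 only with the arrays aligned on the brighter Chga probe set (-0.021).

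The other genes of the gastrin and somatostatin pathway were taken from 6 lists of 91 genes in all besides the members, of which 72 were on the array and 53 passed the filter on dim probe sets. Of these 53 genes 28 were higher at 16 weeks and 25 lower, with a median of 0.03, beside 55.3% higher and a median of 0.07 over all 5864 genes tested. None passed limma's adjusted test. At an unadjusted p under 0.05 in limma, 2 of the 53 were higher (Tpst2 and Tac1) and 1 lower (Gnaq). Over all tested probe sets 8.08% were called higher and 5.87% lower, so these calls do not set the lists apart. Tpst2 was tested only through its 16-week values. The hormones themselves, their processing enzymes, the receptors and the signalling proteins follow in that order.

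The peptide and peptide-processing list had 12 of 14 genes on the array and 10 tested, 5 higher and 5 lower. On the hybridisation controls 9 were higher and 1 lower, and without 16-week sample 1 there were 3 higher and 7 lower. Cholecystokinin (Cck), which shares its active end with gastrin, was under the floor on all arrays, at 7.2 and 3.1 in the 16-week samples, against 6.8 and 2.7 in the 8-week samples. Prohormone convertase 1 (Pcsk1), which cuts progastrin, read 33.9 and 9.4 in the 16-week samples, against 9.1 and 21.1 in the 8-week samples, and the groups overlapped. Pam, which amidates the end of gastrin and many other peptides, gave -0.0043 ± 0.27, with 161 and 121 in the 16-week samples, against 150 and 130 in the 8-week samples. Tpst2, one of the sulfotransferases that modify tyrosines of secreted peptides, read 19.6 and 28.4 in 16-week samples against 4.5 and 10.5 in 8-week samples and was tested only because its 16-week values passed the floor (0.96 ± 0.28, limma adjusted p = 0.326). The convertase Furin read 1629 and 1365 in the 16-week samples, against 733 and 1144 in the 8-week samples (0.70 ± 0.32, limma adjusted p = 0.389).

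The receptor list, which includes Cckbr, had 14 of 16 genes on the array. All 10 that passed the filter were higher at 16 weeks, 0 of them called, with a median of 0.42. Over all 14, with no filter and 16 added to each intensity before log2, 11 were higher and 3 lower and the median was 0.27. Dim probe sets lay higher at 16 weeks more often than bright ones. Of the 2739 tested probe sets with a mean intensity up to 25, 65.6% were higher, and of the 643 above 200, 27.8%. The share was 60% from 25 to 50, 54.3% from 50 to 100 and 42.4% from 100 to 200, beside 56.3% over all tested probe sets. The 10 tested receptors had mean intensities from 9.1 to 142 and so fell in several of these ranges. The part of brightness in their count was not tested. Without 16-week sample 1, 7 of the 10 were higher, on a common median 8 of 10 were, and with the arrays aligned on Chga 5 were.

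Among somatostatin receptors, Sstr2, the main one on ECL cells, read 79.1 and 80.0 in the 16-week samples, against 67.2 and 70.9 in the 8-week samples on its brightest probe set (0.20 ± 0.23), which turned to -0.018 on a common median. Its other probe sets gave 0.56 and -0.46 and so disagreed in sign. Sstr4 read 150 and 156 in the 16-week samples, against 98.5 and 140 in the 8-week samples (0.38 ± 0.28). Sstr3 read 13.3 and 15.2 in 16-week samples against 7.4 and 8.5 in 8-week samples, and passed only through its 16-week values (0.23 ± 0.24). Sstr1 was under the floor on all arrays, and Sstr5 reached it in 1 sample, with 9.9 and 10.8 in the 16-week samples, against 15.8 and 10.2 in the 8-week samples.

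The related cholecystokinin A receptor (Cckar), expressed on D cells, was above the floor in only 1 sample of each group (0.22 ± 0.28). The receptor for histamine that loxtidine blocks, Hrh2, read 61.8 and 42.8 in the 16-week samples, against 32.3 and 44.0 in the 8-week samples (0.45 ± 0.32), with overlap. Vipr1, a receptor for vasoactive intestinal peptide, read 49.4 and 24.9 in 16-week samples against 18.0 and 18.4 in 8-week samples (0.95 ± 0.39, limma adjusted p = 0.364). The PACAP receptor of ECL cells, Adcyap1r1, read 39.0 and 12.7 in 16-week samples against 9.3 and 12.3 in 8-week samples (0.86 ± 0.56). In both of the last 2, 16-week sample 1 stood highest, and without it Vipr1 gave 0.45 and Adcyap1r1 0.055.

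**Figure D5:**
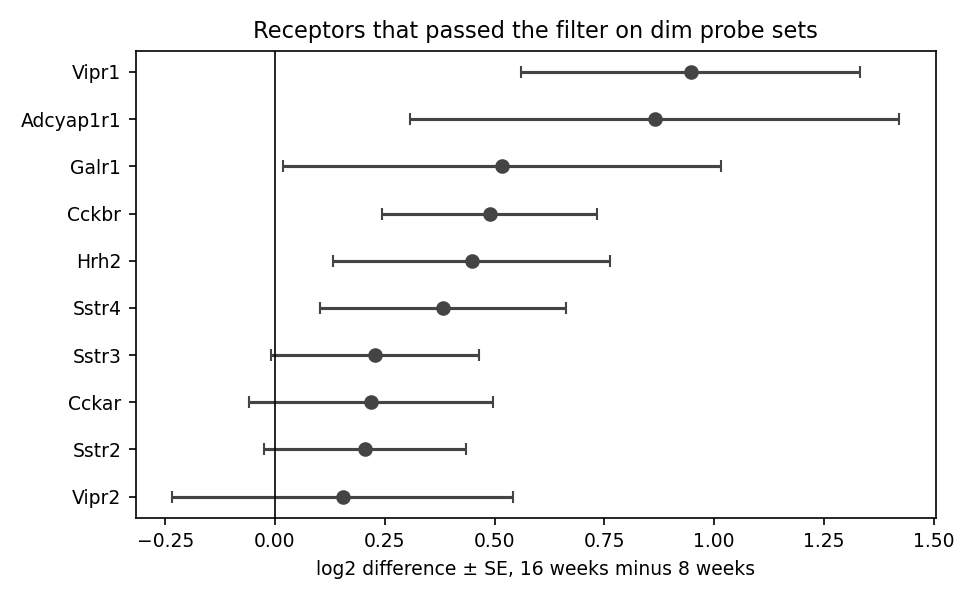
Log2 difference ± SE, 16 weeks minus 8 weeks, of the 10 receptor genes that passed the filter on dim probe sets, each by its brightest probe set. All points lie to the right of 0 on the deposited scale, from 0.15 for Vipr2 to 0.95 for Vipr1 (8 of 10 on a common median), and none passed the adjusted test.

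Of the peptides and factors that act on G and D cells, 8 of 13 were tested, 5 of them higher and 3 lower, against 7 higher on the hybridisation controls and 4 on a common median. Tac1, the precursor of the neuropeptide substance P, read 64.9 and 54.7 in the 16-week samples, against 20.2 and 26.3 in the 8-week samples (1.37 ± 0.27, limma adjusted p = 0.301). It was the gene of the 6 pathway lists with the largest positive difference. Proenkephalin (Penk), the opioid precursor of enteric nerves, read 83.6 and 91.8 in 16-week samples against 48.6 and 64.3 in 8-week samples (0.65 ± 0.27). Its other tested probe set gave 0.22 ± 0.25. Galanin (Gal), which inhibits gastrin release in rodents, read 69.3 and 83.1 in 16-week samples against 54.7 and 66.5 in 8-week samples (0.33 ± 0.26). A second Gal probe set gave 1.20 ± 0.55. Vasoactive intestinal peptide (Vip) gave -0.56 ± 0.49 with overlapping groups.

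The Gq and Gi coupling list, through which Cckbr and the somatostatin receptors signal, had 10 genes tested, 2 higher and 8 lower, with a median of -0.31. The count depended on the scale: 5 were higher after quantile normalization and 7 on the hybridisation controls. Gnaq, the alpha subunit that couples Cckbr to phospholipase C, read 5.9 and 12.2 in the 16-week samples, against 19.7 and 28.6 in the 8-week samples (-0.96 ± 0.28, limma adjusted p = 0.326), with its 16-week readings at or under the floor. Plcb3, a phospholipase C, read 17.2 and 9.3 in 16-week samples against 48.5 and 16.3 in 8-week samples (-0.96 ± 0.57), and leaving out 8-week sample 1 gave -0.17, leaving out 8-week sample 2 gave -1.75. Among the inhibitory subunits, Gnao1 and Gnai3 gave 0.54 ± 0.31 and 0.43 ± 0.26, while Gnai2 gave -0.39 ± 0.28 on its brightest probe set. The other tested probe sets gave -0.56 and -0.13 for Gnai2, and 0.045 and 0.13 for Gnao1.

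Genes known to respond to gastrin were mixed in direction. Of 14 tested, 5 were higher and 9 lower, and the median was -0.13. Quantile normalization made 8 of them higher (median 0.02), and on the hybridisation controls 11 were (median 0.34). Chga is given above, and its second probe set read 142 and 93.7 in the 16-week samples, against 42.2 and 70.6 in the 8-week samples (1.08 ± 0.38, limma adjusted p = 0.343). Histidine decarboxylase (Hdc), the histamine-making enzyme of ECL cells, was under the floor on all arrays. The proton pump subunits gave -0.13 ± 0.26 for Atp4a, which was positive after quantile normalization and on the hybridisation controls, and -0.84 ± 0.35 for Atp4b. The early response factor Fos gave -0.57 ± 0.25, with 0.29 on a second probe set, and the survival factor Mcl1 gave -0.59 ± 0.37.

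Transcription factors of endocrine cells were dim. Of 10 on the array 5 were tested, 3 higher and 2 lower, and Neurog3, Neurod1 and Pdx1 were under the floor on all arrays. Pax4, which in mice is needed for gastric D cells, read 25.4 and 13.7 in the 16-week samples, against 32.7 and 37.4 in the 8-week samples (-0.91 ± 0.37, limma adjusted p = 0.364). Pax6, needed for gastric G and D cells in mice, read 15 and 16.2 in 16-week samples against 12.2 and 12.2 in 8-week samples (0.35 ± 0.23). Nkx2-2 gave 0.49 ± 0.38 and Foxa2 gave -0.99 ± 0.64, both with overlapping groups. Foxa2 gave -0.048 without 16-week sample 2 and -1.94 without 16-week sample 1.

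The labelled tissue was checked against its markers. All 8 acid-secreting mucosa genes on the array were above the floor in all 4 samples, and Atp4a read 4850 and 4034 in the 16-week samples, against 4442 and 5304 in the 8-week samples. Their summed intensity was 9253 and 8534 in the 16-week samples, against 9776 and 11499 in the 8-week samples. Median array intensity was 18.9 to 19.2 at 16 weeks against 15.4 to 17.3 at 8 weeks, and the share of probe sets above the floor was 62.3% to 62.4% at 16 weeks and 55.3% to 57.9% at 8 weeks. Pancreatic acinar transcripts, with 10 of 19 genes on the array, summed to 2548 and 7147 in the 16-week samples, against 3993 and 1299 in the 8-week samples, an order of samples unlike that of Gast. Surface and neck mucous cell genes summed to 4618 and 4418 at 16 weeks and to 5306 and 5449 at 8 weeks. Most of this was Tff1, at 4220 and 4094 at 16 weeks and 4875 and 4910 at 8 weeks. Of that list's 5 tested genes 2 were higher at 16 weeks and 3 lower. General endocrine genes summed to 610 and 514 at 16 weeks, with 470 and 515 at 8 weeks. Squamous forestomach genes summed to 1690 and 3083 at 16 weeks, with 1804 and 1956 at 8 weeks. Of these sums Sprr1b alone gave 1191 and 1279 at 16 weeks and 1069 and 1269 at 8 weeks.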

How the data were processed

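Gastric mucosa RNA was hybridised to mouse U74 arrays (Affymetrix), per the labels. The deposited table holds the authors' intensity for each probe set and array, which is linear and never negative. Its computation and any scaling of arrays are not given in the sources used here. Probes are mouse sequence and the RNA is of another genus, so mismatches lower signals by unknown amounts, a dim probe set does not show absence, and differences were taken within a probe set. Names came from the platform annotation: of 12422 probe sets other than controls 10833 had 1 symbol, 396 several and 1193 none here.

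Values below 12.15 (the median over arrays of the 40th percentile) were set to that floor and log2 was taken. Probe sets above it on at least 2 of 4 arrays (7883) were fitted with limma 3.58.1 (lmFit, eBayes; R 4.3.3), 16 minus 8 weeks, 2-sided, with Benjamini-Hochberg adjustment over all of them and a threshold of 0.05. Of several tested probe sets, the brightest stands for the gene. With no separate animals named, p-values reflect sample-to-sample spread alone, possibly technical. The number of arrays limits the precision. Scripts were tested on simulated data.

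The members and lists were chosen with earlier results of these data known. Named were all member probe sets, the 4 genes with the smallest p in each pathway list, fixed genes of gastrin physiology, and the 4 genes nearest in profile to each member. Of the fixed genes, Pcsk2 and Grp had no probe set of that name. Ins2 and the genes set beside Gast were named after their values were seen. Hybridisation controls were the BioC, BioDn and Cre probe sets. Alternatives changed the floor, filter, scale, variance model and samples.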

Additional observations from a re-analysis of the deposited data

How the results depend on the processing

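No member passed the adjusted test under any alternative run, with limma adjusted p from 0.138 to 0.595 for Gast, 0.332 to 0.796 for Sst and 0.149 to 0.993 for Cckbr. Gast stayed negative in all 17 alternatives (-5.62 to -2.55), and so did its ratio to Sst (-5.35 to -3.05). Sst kept its sign in 13 of 14 and was 0.19 with the hybridisation controls. Cckbr kept its sign in 13 of 14 and was -0.021 with the arrays aligned on the brighter Chga probe set. The 2 alignments on Atp4a and Chga and the separate Gast probe sets were chosen after seeing the data. With a sample left out the differences ranged from -5.62 to -3.33 for Gast, -0.33 to -0.22 for Sst and 0.35 to 0.63 for Cckbr. Sst and Cckbr have 1 probe set each, so no mean over probe sets applied. The count of calls after adjustment was 0 in all 12 alternatives. The count at an unadjusted p under 0.05, 1100 as reported, was 1679 with no floor or filter, 2154 on the hybridisation controls and 591 to 1245 with a sample left out, lowest without 8-week sample 1. The share of these that were higher at 16 weeks was 57.9% as reported, 26.4% on a common median, 47.9% after quantile normalization, 95% on the hybridisation controls, 69.1% with the lower floor and 46.8% with the higher floor. Of the 56 pathway genes tested, Gast among them, 4 had an unadjusted p under 0.05 in limma, beside 14% of all tested probe sets. There were 8 with no floor or filter and after quantile normalization, 7 on a common median and with a trended robust variance, 18 on the controls, and 4 to 8 with a sample left out, 8 without 16-week sample 1. Signs changed for 6 of the 30 other genes and probe sets followed: Pam was 0.082 after quantile normalization, 0.47 on the controls, 0.20 without 16-week sample 2 and 0.097 without 8-week sample 1, with a range of -0.21 to 0.20 over samples left out. Atp4a was 0.12 after quantile normalization and 0.34 on the controls, Sstr2 was -0.018 on a common median, Cckar -0.032 (range -0.032 to 0.47) and Pcsk1 -0.40 (range -0.40 to 1.08) without 16-week sample 1, Pcsk1 -0.056 without 8-week sample 1, and Vip 0.12 (range -1.23 to 0.12) without 8-week sample 2. The cause of these changes was not tested. The labels' sample numbers 1 and 2 were not shown to pair samples: the gaps between samples 1 and 2 of the groups correlated at -0.0504 over 7883 probe sets. With the number as a block, Gast gave an adjusted p of 0.296 at the same -4.48, and 987 probe sets had an unadjusted p under 0.05. Dim signal limits Cck, Hdc, Sstr1 and Sstr5, which were not above the floor on enough arrays to be tested.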
